A study of Mus musculus with 38 samples.

Results

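The genes described here encode the inhibitors of DNA binding Id2 and Id3 and the E proteins Tcf3 (E2A), Tcf4 (E2-2) and Tcf12 (HEB). Their peaks were taken from tables of open chromatin in mouse CD8+ T cells, as every peak whose nearest protein-coding gene body in the mm10 RefSeq annotation, within 100 kb, belonged to 1 of these 5 genes. That gave 49 of 73610 peaks for endogenous tumour-infiltrating cells (Id2 11, Id3 8, Tcf3 2, Tcf4 14, Tcf12 14) and 93 of 169323 for splenic naive and tumour OT-1 cells (Id2 13, Id3 13, Tcf3 10, Tcf4 26, Tcf12 31). A mean of 10 or more normalized reads over a table was needed for testing, and 48 and 59 of these peaks had it. The assay was ATAC-seq, in which the transposase Tn5 puts sequencing adapters into accessible DNA, so a higher read count over a peak means that the site was open more often.

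The labels give strain C57BL/6J and a wild-type genotype for all samples, OT-1 cells included, and ages of 10-12 weeks (young) or 64-68 weeks (aged). Endogenous CD8+ T cells were sorted from B16-OVA melanomas, a mouse melanoma line made to carry ovalbumin, on day 15. The groups were young Tprog (n = 4), aged Tprog (n = 3), young Tterm (n = 5), aged Tterm (n = 3) and aged Tadys (n = 2). Tprog, the progenitor exhausted subset, was gated Slamf6+ Tim-3-, and Tterm, the terminally exhausted subset, Slamf6- Tim-3+. Tadys, which the labels call age-associated dysfunctional, is taken to be the double-negative gate, the only other gate described. OT-1 cells, whose transgenic receptor recognises an ovalbumin peptide, came from the same kind of tumour as young Tprog (n = 2), aged Tprog (n = 2), young Tterm (n = 7) and aged Tterm (n = 6). The labels do not say how old the hosts of the OT-1 cells were. Naive CD8+ T cells came from spleens of young (n = 2) and aged (n = 2) mice, and their sample titles do not name OT-1.

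E proteins are helix-loop-helix transcription factors that bind the E-box, the motif CANNTG, as dimers. Id proteins carry the same dimerisation fold without a DNA-binding region, so they pair with E proteins and keep them off DNA. In CD8+ T cells responding to infection, Id2 is known for its part in effector and terminally differentiated cells and Id3 for its part in memory precursors and stem-like cells, while E proteins act on genes of both fates.

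Sequencing depth ran from 4.64 to 87.6 megareads in peaks per endogenous library and from 6.80 to 27.7 megareads per library of the other table. Gene-end peaks (at most 1000 bp from 1 of the ends of a gene body) were present at all 4 CD8 T cell markers used, and their summed level was 3399 to 4952 normalized reads in endogenous libraries and 1472 to 2930 in the others. Neither table had gene-end peaks at Pax5, Siglech, Lyz2, Csf1r, Pmel, Tyr, Ncr1 or Foxp3, which mark B cells, plasmacytoid dendritic cells, myeloid cells, melanocytes, NK cells and regulatory T cells. Other genes of the same lists did have gene-end peaks in both tables. In endogenous libraries their means were 835 at Irf8 and 623 at Bst2 (plasmacytoid dendritic cells), 497 at Itgam and 311 at Spi1 (myeloid), and 663 at Mitf, 22.5 at Dct and 8.41 at Sox10 (melanocytes). Ebf1 (B cells) had 181, Klrb1c (NK cells) 168 and Zbtb7b (CD4 T cells) 848. The table of naive and OT-1 libraries also had them at Cd79a (71.9), Ms4a1 (8.83) and Cd4 (11.1). Aged OT-1 Tprog replicate 1 stood apart, with a normalized total of 7.92 megareads against 10.2 to 14.95 in the other 20 libraries of its table. Batch 6 held both aged OT-1 Tprog libraries, aged OT-1 Tterm 6 and young OT-1 Tterm 6 and 7, and batch 3 held all naive libraries and nothing else. The other OT-1 libraries are labelled batch 4 & 5, and all endogenous libraries batch 1 & 2. These joint labels do not say which batch a library came from. Batch could therefore not be fitted in the endogenous comparisons, and its part in them is not known. Values are normalized reads per peak, log2 differences carry their SE, and a peak is called where the adjusted p of limma, over all tested peaks of its table, is under 0.05. Each library is a pool of sorted cells. The study's description gives 2 or 3 pooled biological replicates, while some groups list up to 7 libraries, so some may repeat the same pool, and the p-values reflect how much the libraries vary, and some of that variation may be technical.

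In young endogenous cells the start peak of Id3 was lower in Tterm than in Tprog and that of Id2 higher, though the Id2 call was lost with equal library totals. The bases just upstream of each start that lie inside those peaks are shown here. So are those of 2 of the annotated starts of Tcf12. The first lies inside a peak at the start of the gene that did not differ. The second lies inside a peak 215.5 kb into the gene that was lower in young Tterm. These sequences are RefSeq promoters of GRCm38.p6, the build of mm10, each with 250 bases that end just before the annotated start, written 5′ to 3′ on the strand of the gene, with any match to CANNTG in capitals.
Id2, chr12:25096093-25096342, minus strand: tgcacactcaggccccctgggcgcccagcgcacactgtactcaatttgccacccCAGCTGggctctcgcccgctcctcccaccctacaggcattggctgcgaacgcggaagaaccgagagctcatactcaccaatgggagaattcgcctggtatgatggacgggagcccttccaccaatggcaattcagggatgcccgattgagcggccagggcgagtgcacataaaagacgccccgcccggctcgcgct
Id3, chr4:136143572-136143821, plus strand: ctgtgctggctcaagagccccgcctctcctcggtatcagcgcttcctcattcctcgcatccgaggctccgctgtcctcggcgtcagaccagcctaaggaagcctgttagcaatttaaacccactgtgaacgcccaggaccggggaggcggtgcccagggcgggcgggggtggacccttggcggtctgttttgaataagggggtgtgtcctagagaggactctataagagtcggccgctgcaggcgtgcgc
Tcf12, chr9:72111820-72112069, minus strand: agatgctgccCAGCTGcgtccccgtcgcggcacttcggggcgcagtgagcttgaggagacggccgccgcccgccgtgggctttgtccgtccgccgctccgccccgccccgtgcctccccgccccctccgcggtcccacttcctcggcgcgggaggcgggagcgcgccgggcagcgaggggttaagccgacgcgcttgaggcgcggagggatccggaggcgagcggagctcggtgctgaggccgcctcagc
Tcf12, internal start, chr9:71896097-71896346, minus strand: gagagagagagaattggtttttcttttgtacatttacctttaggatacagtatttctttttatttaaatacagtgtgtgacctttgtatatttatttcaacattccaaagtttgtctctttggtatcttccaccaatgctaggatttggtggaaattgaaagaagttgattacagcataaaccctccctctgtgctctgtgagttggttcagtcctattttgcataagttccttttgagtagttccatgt

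The Id2 window held 1 E-box, CAGCTG, whose first base lies 196 bp before the start, and the Id3 window held none. The first Tcf12 window also held a CAGCTG, 240 bp before the start, and the internal Tcf12 window no E-box. Another Tcf12 window inside the start peak, not shown, held a CAAGTG 149 bp before its own start. The Tcf3 promoter, not shown, had a single CACTTG 54 bp before its start. Of the 32817 promoter windows of this length in the RefSeq table, 66.2% held CANNTG on either strand (the motif reads the same on both), 13.0% held its form CAGCTG, and 17.2% held CACCTG or, read from the opposite strand, CAGGTG. These are all forms of CANNTG, so the shares overlap. A promoter sequence for Tcf4 was not used here.

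In young endogenous cells, the Id2 locus was more open in Tterm than in Tprog and the Id3 locus less open. Of the 48 tested peaks, 21 were called, 8 higher and 13 lower in Tterm, against 25.6% of all 71756 tested peaks (14.3% higher and 11.3% lower). The median log2 difference was -0.21 over the tested member peaks and -0.01 over all peaks. With library totals set equal the split was 6 higher and 16 lower, and the median over all peaks was then -0.17. Of all peaks, 17274 were then called (6025 higher), against 18376 (10261 higher) before. At Id2, 7 of 11 peaks were higher and none lower. At Id3, 6 of 8 were lower and none higher. Tcf12 had 6 of 13 tested peaks lower, Tcf4 had 1 of 14 lower, and Tcf3 had 1 of 2 higher. The only gene of the NK cell list with a gene-end peak had 61.5 to 135 reads in young Tprog and 169 to 270 in young Tterm, and its part in these results was not tested. In sorted bulk cells, a site open in fewer cells and a site less open in each cell cannot be told apart.

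**Figure D1:**
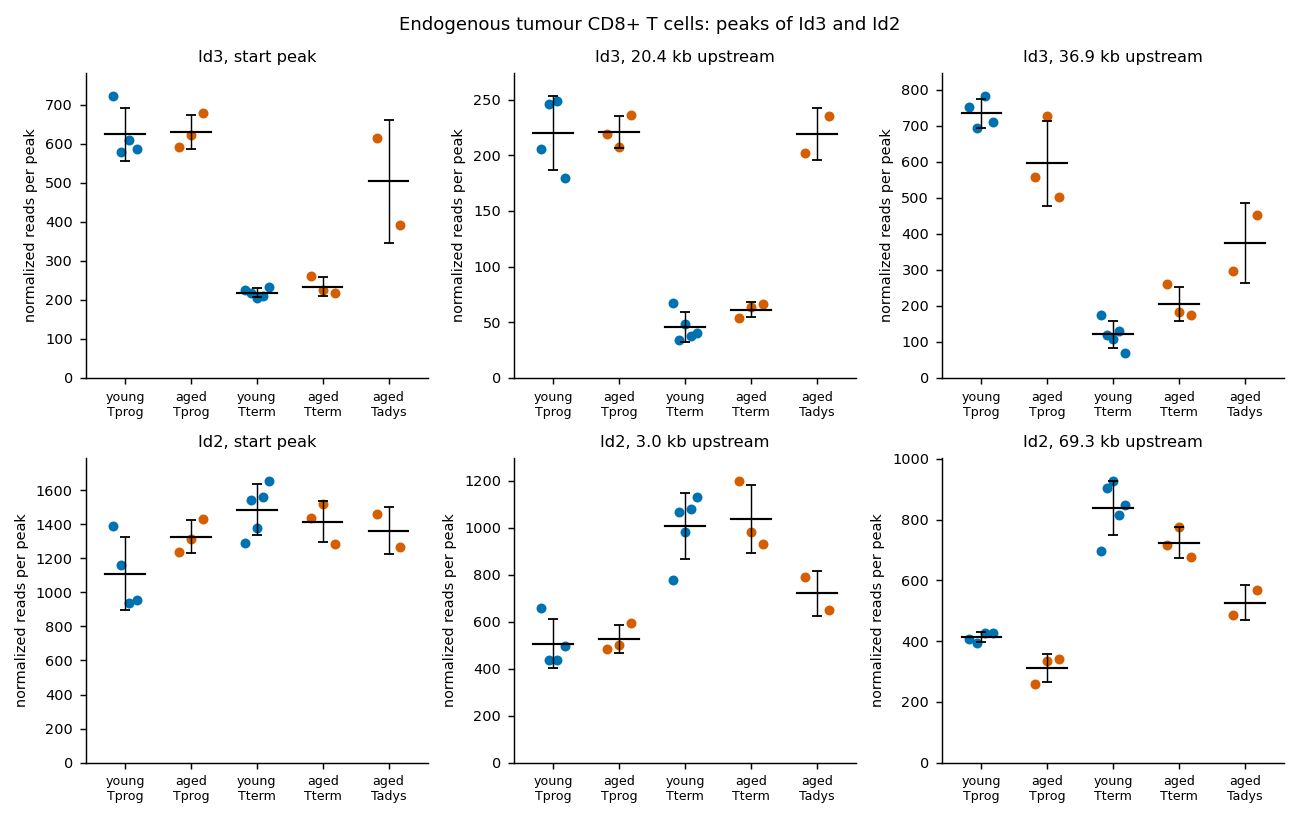
Normalized reads per peak (y axis, from 0) at 3 peaks of Id3 (top) and 3 peaks of Id2 (bottom) in each endogenous library, by group (x axis; blue young, orange aged); black lines are means and error bars SD. At Id3 every Tterm library lies below every Tprog library, and at the Id2 peaks 3.0 and 69.3 kb upstream every Tterm library lies above every Tprog library.

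The Id3 start peak (chr4:136143484-136144992, mm10), which covers the promoter above, had 723, 578, 610 and 586 reads in young Tprog replicates 1 to 4 and 225, 219, 205, 210 and 234 in young Tterm replicates 1 to 5. All 5 Tterm libraries lay below all 4 Tprog libraries, with a log2 difference of -1.51 ± 0.14 (adjusted p = 6.08e-09, limma). A peak 36.9 kb upstream of Id3 (chr4:136106328-136107477) changed most of all member peaks: the Tprog libraries had 752, 694, 783 and 710 reads and the Tterm libraries 174, 120, 107, 130 and 70.4. The groups were again far apart, and the log2 difference was -2.66 ± 0.20 (adjusted p = 2.45e-10, limma). A weaker peak 20.4 kb upstream (chr4:136122877-136123895) had 206, 246, 249 and 179 reads in Tprog and 67.5, 34.2, 48.8, 37.9 and 40.0 in Tterm, a log2 difference of -2.27 ± 0.22 (adjusted p = 8.03e-09, limma). Peaks 43.2, 26.6 and 8.9 kb upstream were also lower in Tterm, with log2 differences of -1.06, -1.79 and -1.65. The strongest peak of the locus, 4.2 kb downstream of the start (chr4:136147532-136148552), was not called: its means were 503 ± 43.4 (SD, n = 5) in Tterm and 584 ± 61.0 (SD, n = 4) in Tprog, and the 95% interval of the log2 difference ran from -0.48 to 0.05.

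At Id2 the differences were smaller. Called peaks lay at the gene, 3.0 kb upstream and from 47.5 to 93.8 kb upstream, and 4 weak peaks, 12.8, 21.9, 46.0 and 78.8 kb upstream, were not called. The peak 69.3 kb upstream (chr12:25164283-25166408) had 407, 395, 426 and 427 reads in young Tprog and 698, 902, 927, 816 and 849 in young Tterm. No Tterm library came near the Tprog range, and the log2 difference was 1.01 ± 0.12 (adjusted p = 5.45e-07, limma). At the peak 3.0 kb upstream (chr12:25098301-25099929) the Tprog libraries had 657, 439, 436 and 495 reads and the Tterm libraries 778, 1069, 982, 1080 and 1132, a log2 difference of 1.00 ± 0.14 (adjusted p = 3.03e-06, limma). The Id2 peak of highest mean, 93.8 kb upstream (chr12:25188658-25191156), went from 1455 ± 329 (SD, n = 4) in Tprog to 2303 ± 210 (SD, n = 5) in Tterm, and the peak 59.6 kb upstream from 715 ± 88.3 to 1149 ± 137. Peaks 47.5 kb upstream and 3.1 kb downstream of the start, the latter at the far end of the gene, were higher by 0.75 and 0.66 on the log2 scale. The Id2 start peak (chr12:25095285-25096855) was high in Tprog, with 1390, 1160, 936 and 953 reads, and had 1286, 1544, 1377, 1562 and 1655 in Tterm. These libraries overlapped. The log2 difference of 0.43 ± 0.12 (adjusted p = 0.00609, limma) was lost with library totals set equal (adjusted p = 0.0603).

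**Figure D2:**
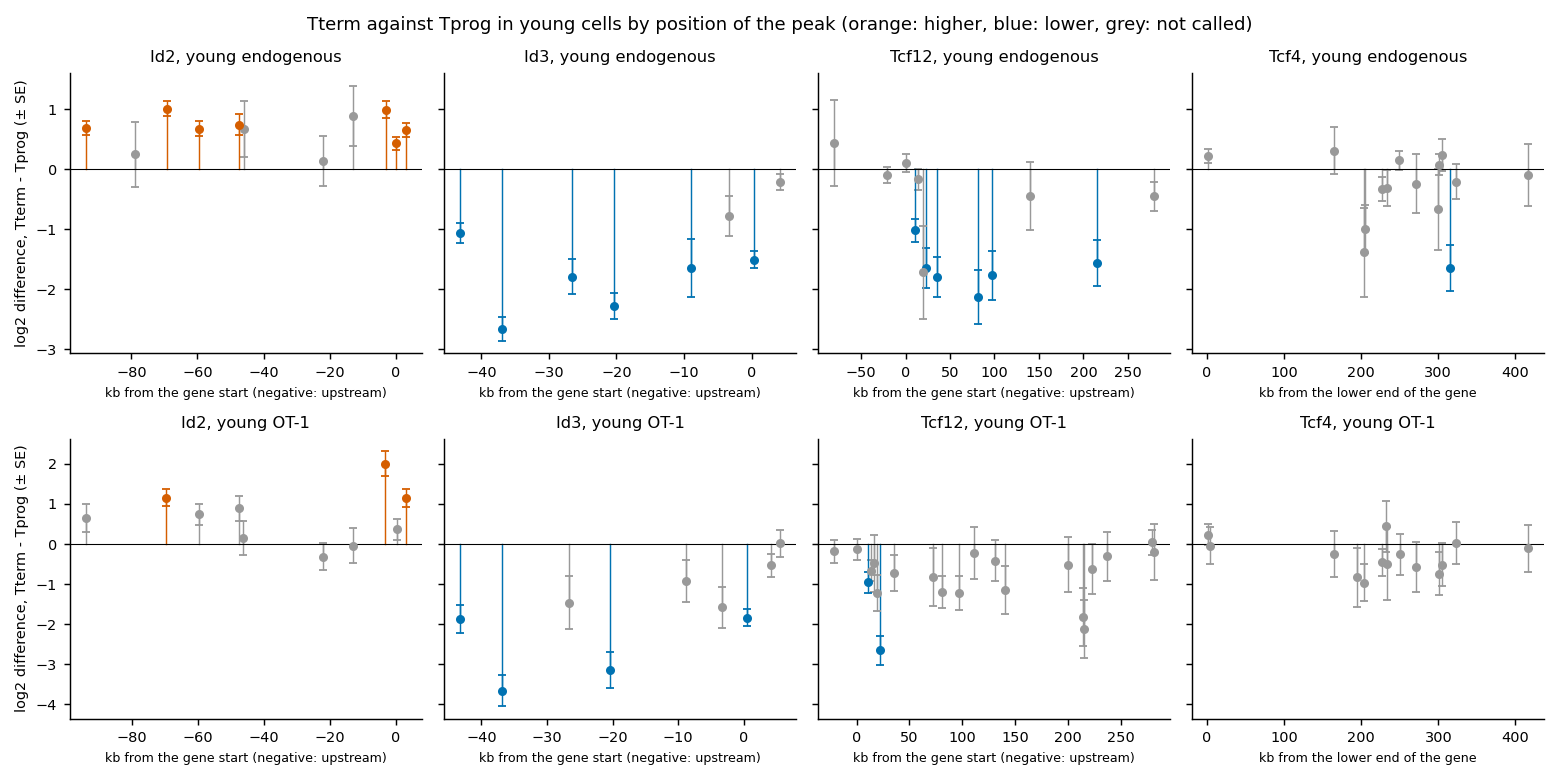
Log2 difference of Tterm against Tprog (y axis, ± SE) for every tested peak of Id2, Id3, Tcf12 and Tcf4 by distance in kb from the gene start, or for Tcf4 from the lower end of the gene (x axis), in young endogenous cells (top) and young OT-1 cells (bottom); orange peaks were called higher, blue lower, grey not called. Called peaks point up at Id2 and down at Id3 and Tcf12 in both cell sources. At Tcf4, 1 peak was called lower in endogenous cells and 0 were called in OT-1 cells.

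The E protein genes showed no such common shift at their starts. Tcf12, the gene of HEB, had a start peak (chr9:72110573-72112563) with 579, 423, 639 and 677 reads in young Tprog and 626, 704, 685, 591 and 493 in young Tterm, and the 95% interval of its log2 difference was -0.20 to 0.41. Lower in Tterm were 6 peaks inside the gene, 11.1, 22.6, 35.5, 81.1, 96.8 and 215.5 kb from its start. The strongest of them, at 11.1 kb (chr9:72099957-72101628), had 451, 406, 603 and 407 reads in Tprog and 266, 337, 213, 217 and 146 in Tterm, with no overlap and a log2 difference of -1.02 ± 0.19 (adjusted p = 1.97e-04, limma). The peak at 22.6 kb (chr9:72089002-72089667) had 118, 95.6, 148 and 104 reads in Tprog and 30.0, 26.5, 39.5, 46.2 and 42.4 in Tterm, a log2 difference of -1.64 ± 0.33 (adjusted p = 4.39e-04, limma). The peak that covers the internal start, at 215.5 kb, was weak, with a mean of 58.7 in Tprog, and had a log2 difference of -1.56.

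The Tcf3 start peak (chr10:80433072-80434474), at the gene of E2A, had 1482, 984, 1028 and 1070 reads in young Tprog and 1378, 1567, 1486, 1525 and 1617 in young Tterm. Tprog replicate 1 overlapped the Tterm range, and the log2 difference of 0.43 ± 0.12 (adjusted p = 0.0103, limma) was lost with library totals set equal (adjusted p = 0.0699). Tcf4 positions are counted from the lower-coordinate end of the gene, since no strand was given for it. Its peak at 315.2 kb (chr18:69658371-69658848) had 73.3, 36.8, 63.3 and 50.2 reads in Tprog and 15.0, 14.7, 16.8, 22.7 and 14.9 in Tterm, a log2 difference of -1.65 ± 0.39 (adjusted p = 0.00193, limma). The gene-end peak of Tcf4 at 1.9 kb (chr18:69343967-69346694) was not called, with 757 ± 86.9 (SD, n = 5) in Tterm and 644 ± 51.4 (SD, n = 4) in Tprog.

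**Figure D3:**
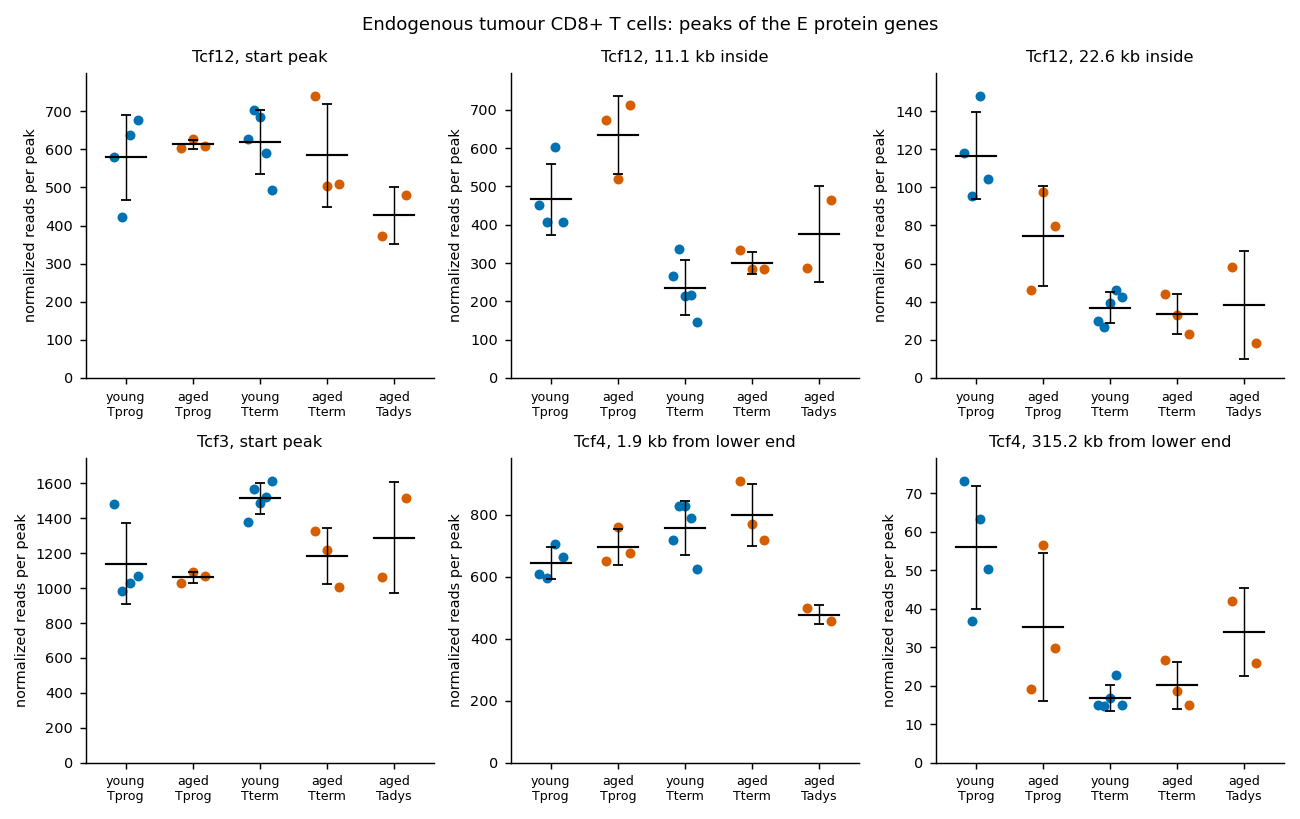
Normalized reads per peak (y axis, from 0) at 3 peaks of Tcf12, 1 of Tcf3 and 2 of Tcf4 in each endogenous library, by group (x axis; blue young, orange aged); black lines are means and error bars SD. At the Tcf12 start peak the young and aged groups of Tprog and Tterm overlap, in young mice the 2 Tcf12 peaks inside the gene are lower in Tterm, and Tadys has the lowest values at the Tcf4 peak 1.9 kb from the lower end.

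In aged mice the same comparison called 14 of the 48 peaks, 6 higher and 8 lower, against 12.1% of all tested peaks (6.75% higher and 5.37% lower). All 6 higher peaks were at Id2. The lower ones were 5 peaks of Id3 and 3 of Tcf12. The Id3 start peak had 592, 622 and 678 reads in aged Tprog and 261, 224 and 217 in aged Tterm, a log2 difference of -1.43 ± 0.17 (adjusted p = 1.73e-06, limma). At the Id2 peak 69.3 kb upstream the values were 258, 333 and 342 in aged Tprog and 717, 777 and 676 in aged Tterm, a log2 difference of 1.22 ± 0.15 (adjusted p = 2.62e-06, limma). The groups were apart at both peaks. The Id2 peak 93.8 kb upstream was higher by 0.54 ± 0.14 on the log2 scale (adjusted p = 0.0123, limma) and not called without aged Tterm replicate 2 (adjusted p = 0.0798). Gene-end sums were 88.9 to 99.9 in aged Tprog and 169 to 272 in aged Tterm for the NK list, 135 to 146 and 197 to 262 for the B cell list, and 1268 to 1320 and 1406 to 1579 for the plasmacytoid dendritic cell list. Their part in these results was not tested.

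No member peak was called between aged and young endogenous cells. For Tterm, 0.00836% of all tested peaks were called (0.00697% higher and 0.00139% lower in aged cells). An unadjusted p under 0.05 in limma was reached by 3 of 48 member peaks and by 5122 of all 71756. For Tprog, 0.166% were called (0.0822% higher and 0.0836% lower), and 11 member peaks and 9029 of all peaks had such a p. edgeR on the recovered reads called 0 members in both. For the Id3 start peak the 95% interval of the aged minus young log2 difference was -0.22 to 0.41 in Tterm and -0.31 to 0.34 in Tprog, and for the Id2 start peak -0.33 to 0.19 and 0.00 to 0.54. In Tprog, the lowest adjusted p of a member peak for age was 0.168 (limma), at Id2. The largest age difference in Tterm relative to its error was at the Id3 peak 36.9 kb upstream, where aged Tterm had 260, 182 and 174 reads and young Tterm 70.4 to 174, a log2 difference of 0.80 ± 0.21 (adjusted p = 0.268, limma). Aged Tprog had 557, 728 and 502 reads there. Its difference between Tterm and Tprog was -2.66 in young and -1.54 in aged mice. The test of age by subset at this peak gave 1.12 ± 0.31 (adjusted p = 0.539, limma). That test called 0 of 48 member peaks and 0% of all peaks, with 0 members called by edgeR. In limma, 4 members and 5676 of all 71756 peaks had an unadjusted p under 0.05.

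Tadys cells were sampled from aged mice alone. Against aged Tterm, 3 of 48 peaks were called, 2 higher and 1 lower, a share near the background, where 6.3% of all tested peaks were called (2.06% higher and 4.23% lower). With library totals set equal there were 5, 4 higher and 1 lower, while calls over all peaks went from 4518 to 4084. The count was 5 without aged Tterm replicate 1, where calls over all peaks fell to 2088. Without Tadys replicate 2 the member count and the calls over all peaks both rose. The Id3 peak 20.4 kb upstream had 202 and 236 reads in Tadys against 53.4, 63.5 and 66.3 in aged Tterm and 219, 207 and 236 in aged Tprog. The 2 Tadys libraries lay in the range of young and aged Tprog and above all aged Tterm libraries, with a log2 difference from Tterm of 1.83 ± 0.29 (adjusted p = 7.98e-04, limma) and a 95% interval of -0.61 to 0.59 against Tprog. At the Id3 start peak, Tadys had 615 and 392 reads, and the log2 difference from aged Tterm was 1.07 ± 0.19 (adjusted p = 0.00176, limma), not called without Tadys replicate 1 (0.75, adjusted p = 0.0616). The Id3 peak 36.9 kb upstream had 297 and 453 reads, between aged Tterm and aged Tprog, and passed neither test (adjusted p = 0.0523 and 0.117, limma).

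Against aged Tprog, 3 peaks were called, 2 higher and 1 lower, again near the background, where 6.65% of all tested peaks were called (2.61% higher and 4.04% lower). Only 1 was called without aged Tprog replicate 2 or 3, and 1 with the replicate block. Calls over all peaks fell too, from 4773 to 1848 (without replicate 2), 2678 (without replicate 3) and 3629 (block). The Id2 peak 69.3 kb upstream had 487 and 567 reads in Tadys, above the 3 aged Tprog libraries and below the 3 aged Tterm libraries, and the log2 difference from Tprog was 0.77 ± 0.17 (adjusted p = 0.00809, limma). Its difference from Tterm, -0.46 ± 0.17, was not called (adjusted p = 0.0972, limma). A weak Id2 peak 78.8 kb upstream had 38.1 and 28.9 reads in Tadys and 11.5, 4.71 and 2.49 in aged Tprog (adjusted p = 0.0443, limma), and it was not called with the replicate block or without Tadys replicate 1, Tadys replicate 2, aged Tprog replicate 2 or aged Tprog replicate 3. Of 14 tested Tcf4 peaks, 1 was called in each of the Tadys comparisons, the gene-end peak at 1.9 kb. It had 499 and 457 reads in Tadys, below all 15 other endogenous libraries, of which the lowest had 595. The log2 difference was -0.74 ± 0.16 from aged Tterm (adjusted p = 0.00769, limma) and -0.54 ± 0.16 from aged Tprog (adjusted p = 0.0421, limma). The second was lost with edgeR, with the replicate block, and without either Tadys library or aged Tprog replicate 2 or 3, with adjusted p up to 0.142. Summed gene-end peaks of the B cell list, 1 of 5 genes, were 131 to 138 in Tadys and 197 to 262 in aged Tterm, those of the plasmacytoid dendritic cell list, 2 of 4 genes, 1128 to 1401 and 1406 to 1579, and those of the melanocyte list, 3 of 5 genes, 629 to 687 and 695 to 800. In aged Tprog the NK sum was 88.9 to 99.9, against 144 to 251 in Tadys, and the melanocyte sum 744 to 831. Their part in the Tadys results was not tested.

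Ordered by mean, the Id3 start peak fell from aged Tprog (631 ± 43.7, SD, n = 3) and young Tprog (625 ± 67.2, n = 4) through Tadys (504 ± 158, n = 2) to aged Tterm (234 ± 23.5, n = 3) and young Tterm (219 ± 11.5, n = 5). Neighbours in that order overlapped except Tadys and aged Tterm. The Id2 peak 69.3 kb upstream had the reverse order for the subsets, with young Tterm (838 ± 90.1, n = 5), aged Tterm (723 ± 50.9, n = 3), Tadys (527 ± 56.4, n = 2), young Tprog (414 ± 15.3, n = 4) and aged Tprog (311 ± 46.6, n = 3), and young and aged Tterm were the only neighbours that overlapped. Over the 17 endogenous libraries, these 2 peaks had a Pearson correlation of -0.92 on the log2 scale, and the Id3 start peak and the Id3 peaks 36.9 and 20.4 kb upstream correlated at 0.91 and 0.94. These peaks were chosen for a low adjusted p (limma) between young Tterm and Tprog among the same libraries, so the signs of these correlations follow from that choice. The correlations are descriptions over libraries that share subset, scaling and depth differences. The peaks of other genes most like the Id2 peak 69.3 kb upstream, of 54385 with a mean of 30 or more, were nearest to Tmem163, Adgrg1, Mthfd1, Specc1 and Eps8l3, with correlations from 0.976 down to 0.974. Those most like the Id3 peak 36.9 kb upstream were nearest to Lonrf2, Adh6a, Xcl1, Irgc1 and Inpp4b, with 0.980 down to 0.972.

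In OT-1 cells, whose receptor is the same in every cell, young Tterm against young Tprog called 9 of 59 tested member peaks, 3 higher and 6 lower, against 7.63% of all 84091 tested peaks (4.06% higher and 3.57% lower). The 3 higher peaks were at Id2, 4 of the lower at Id3 and 2 at Tcf12. Counts were 14 with equal totals (5 higher, 9 lower), 13 with edgeR (3 higher, 10 lower) and 17 without the batch 6 libraries (6 higher, 11 lower). Calls over all peaks went from 6413 to 7817 with equal totals and 7653 with edgeR. Without the batch 6 libraries 12.5% of all peaks were called. Each peak named below was called in both fits, with and without batch 6. Gene-end sums of the NK list were 76.6 to 85.9 in young OT-1 Tprog and 119 to 174 in young OT-1 Tterm, those of the plasmacytoid dendritic cell list 695 to 736 and 813 to 1190, and those of the B cell list, 3 of 5 genes here, 139 to 163 and 169 to 191. The CD4 T cell list, 2 of 3 genes, had 562 to 570.0 and 605 to 899. Their part in these results was not tested.

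The Id3 start peak of this table (chr4:136143448-136145187) had 389 and 473 reads in young OT-1 Tprog and from 97.8 to 142, with a median of 116, in the 7 young OT-1 Tterm libraries. The Tterm libraries of both batches lay far below, and the log2 difference was -1.84 ± 0.21 (adjusted p = 4.29e-06, limma). At the Id3 peak 36.9 kb upstream (chr4:136106476-136107365) Tprog had 586 and 721 reads and Tterm 27.3 to 69.6 with a median of 44.4, a log2 difference of -3.65 ± 0.38 (adjusted p = 1.15e-06, limma). The Id2 peak 3.2 kb upstream (chr12:25098301-25100245) had 155 and 139 reads in Tprog and 504 to 723 with a median of 620 in Tterm, a log2 difference of 2.00 ± 0.31 (adjusted p = 1.59e-04, limma). At the Id2 peak 69.4 kb upstream (chr12:25164304-25166735) the values were 262 and 241 in Tprog and 480 to 791 with a median of 552 in Tterm, a log2 difference of 1.16 ± 0.21 (adjusted p = 6.01e-04, limma). None of these 4 peaks overlapped between the subsets. The Tcf12 peak 22.5 kb into the gene (chr9:72088951-72089902) had 132 and 124 reads in Tprog and 16.6 to 28.9 with a median of 20.1 in Tterm, a log2 difference of -2.65 ± 0.37 (adjusted p = 3.55e-05, limma).

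In aged OT-1 cells, 12 of 59 peaks were called, 6 higher and 6 lower, against 14.7% of all tested peaks (11.3% higher and 3.39% lower). All 6 higher peaks were at Id2, with 4 of the lower at Id3 and 2 at Tcf12. The split depended on scaling: equal totals gave 6 higher and 11 lower, and edgeR 4 and 12. The median over all peaks was 0.15 as deposited, -0.25 with equal totals and -0.12 in edgeR. Of all peaks, 12327 were called as deposited (9477 higher), 11792 with equal totals (5745 higher) and 11179 in edgeR (5812 higher). Both aged Tprog libraries are in batch 6, and only 1 of the 6 aged Tterm libraries is. The count was 7 without aged OT-1 Tprog replicate 1 and 23 without replicate 2, while the calls over all peaks went from 12327 to 6720 and 30254. The Id2 peak 93.9 kb upstream had 296 and 1335 reads in those 2 libraries and 1337 to 2218 in aged Tterm, and it was not called with edgeR or without replicate 1 (log2 difference 0.40). The Id2 peak 69.4 kb upstream had 173 and 204 reads in aged Tprog and 504 to 701 with a median of 591 in aged Tterm, and the Id3 start peak 300.2 and 420 against 87.9 to 138 with a median of 118. Both kept their call in all 14 alternatives. The NK sum was 79.1 to 82.7 in aged Tprog and 152 to 261 in aged Tterm, and the B cell sum 125 to 126 and 133 to 164. Their part in these results was not tested.

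**Figure D4:**
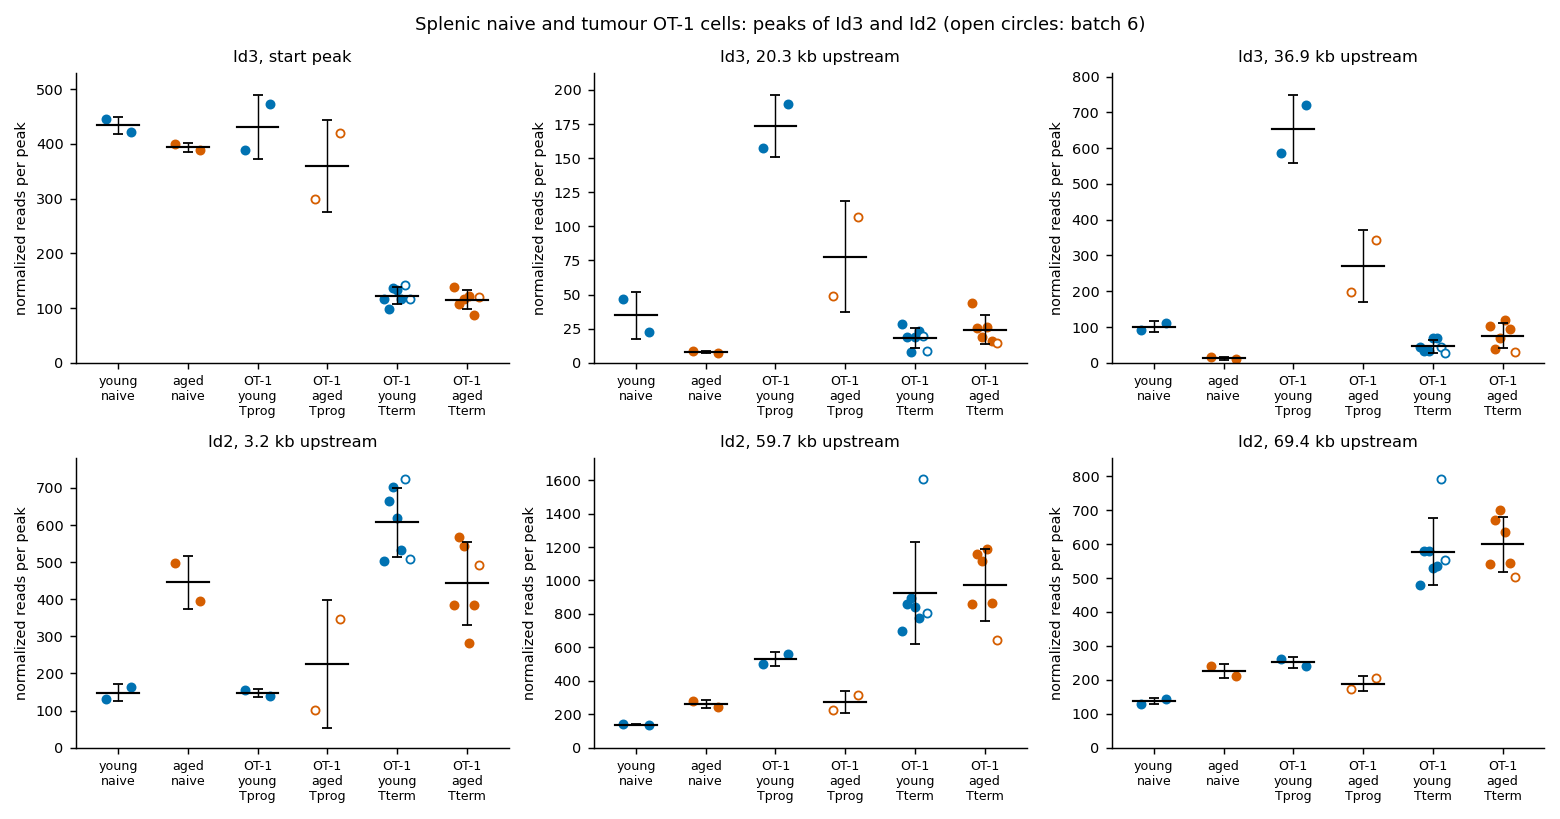
Normalized reads per peak (y axis, from 0) at 3 peaks of Id3 (top) and 3 peaks of Id2 (bottom) in each naive and OT-1 library, by group (x axis; blue young, orange aged; open circles batch 6); black lines are means and error bars SD. The Id3 start peak is alike in naive and Tprog cells and low in Tterm, the upstream Id3 peaks are highest in young Tprog, and the Id2 peaks have their highest mean in a Tterm group.

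Set against young splenic naive cells, young OT-1 Tprog had 14 of 59 member peaks called, 11 higher and 3 lower. That share was near the background, where 24.2% of all peaks were called (15% higher and 9.15% lower). Young OT-1 Tterm had 28 called, 10 higher and 18 lower, against 40.3% of all peaks (22.4% higher and 17.9% lower). With equal totals the second split was 8 and 24, where 38952 of all peaks were called, 17018 of them higher. These contrasts also compare spleen with tumour, batch 3 with the other batches, and cells whose titles do not name OT-1 with OT-1 cells. None of these can be told apart from the difference of state. They share the 2 young naive libraries, and leaving out 1 of those or 1 of the 2 Tprog libraries took the Tprog count to 5, while leaving out a young naive library took the Tterm count to 13 (replicate 1) or 16 (replicate 2). Calls over all peaks fell with them, from 20308 to between 10180 and 13104 for Tprog and from 33897 to 19578 and 19496 for Tterm. The CD4 T cell sum was 242 to 273 in young naive cells, 562 to 570.0 in Tprog and 605 to 899 in Tterm, the myeloid sum 261 to 308, 419 to 496 and 370 to 547, the NK sum 61.8 to 73.3, 76.6 to 85.9 and 119 to 174, and the plasmacytoid dendritic cell sum 559 to 606, 695 to 736 and 813 to 1190. The B cell sum was 149 to 164, 139 to 163 and 169 to 191. Their part in these results was not tested.

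Peaks of 1 gene did not all differ between the same groups among naive, Tprog and Tterm cells. At the Id3 start the young naive libraries had 445 and 423 reads, level with the 389 and 473 of Tprog (95% interval of the log2 difference -0.55 to 0.52), while Tterm differed from naive by -1.85 ± 0.21 on the log2 scale (adjusted p = 2.72e-07, limma). The Id3 peak 36.9 kb upstream had 90.6 and 112 reads in young naive cells, so Tprog was higher than naive by 2.68 ± 0.46 (adjusted p = 1.58e-04, limma). The Id3 peak 20.3 kb upstream was likewise higher in Tprog, with 157 and 190 reads against 46.9 and 22.5, a difference of 2.37 ± 0.55 (adjusted p = 0.00256, limma) that was not called without young naive replicate 2.

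The distal Id2 peaks were higher in Tprog than in naive cells. The peak 59.7 kb upstream had means of 137 ± 3.80 (SD, n = 2) in young naive cells, 529 ± 40.1 (n = 2) in young Tprog and 926 ± 306 (n = 7) in young Tterm, and its neighbours 47.4, 69.4 and 93.9 kb upstream had the same order. All 4 were called higher than naive in both Tprog and Tterm. In Tprog, the peaks at 69.4 and 93.9 kb were not called without any 1 of the 4 libraries compared. From Tprog to Tterm, only the peak at 69.4 kb of these 4 was called with batch 6 in the fit, and all 4 without those libraries. The Id2 peak 3.2 kb upstream had 131 and 164 reads in young naive cells and 155 and 139 in Tprog, overlapping, with a 95% interval of -0.78 to 0.79, and was higher than naive in Tterm alone, by 2.00 ± 0.31 (adjusted p = 1.74e-05, limma). The Id2 start peak was open in every group, with means from 556 in young naive to 994 in aged OT-1 Tterm.

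The E protein genes gave mixed directions in the same contrasts. In Tterm against young naive cells Tcf12 had 9 of 21 tested peaks lower and none higher, and Tcf4 had 4 of 14 lower and 2 higher. The lower Tcf4 peaks, 194.1, 204.1, 227.5 and 232.1 kb from the lower end, and the higher ones, at 301.0 and 304.6 kb, all lie inside the gene. At 301.0 kb (chr18:69643747-69645155) the young naive libraries had 30.2 and 36.9 reads, young Tprog 232 and 211, and young Tterm 35.1 to 171 with a median of 139. At 204.1 kb the mean was 114 in young naive cells and 27.6 in young Tterm. The Tcf12 start peak was not called in either contrast, nor that of Tcf3, which had 649 and 679 reads in young naive and 785 and 619 in young Tprog.

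Between aged and young naive cells, 4 of 59 peaks were called, 2 higher at Id2 and 2 lower at Id3. That share was near the background, where 5.24% of all tested peaks were called (4.08% higher and 1.16% lower). The Id2 peak 3.2 kb upstream had 497 and 395 reads in aged and 131 and 164 in young naive cells, a log2 difference of 1.59 ± 0.38 (adjusted p = 0.0125, limma). The Id2 gene-end peak at 3.2 kb downstream of the start (chr12:25092208-25093666) had 541 and 496 reads in aged and 258 and 214 in young cells, a log2 difference of 1.14 ± 0.28 (adjusted p = 0.0140, limma). All 10 tested Id2 peaks had a higher mean in aged naive cells, with log2 differences from 0.58 and a median of 0.93, where the median over all peaks was 0.11. At Tcf4, 13 of 14 tested peaks had a lower mean in aged naive cells, with a median log2 difference of -1.08. Of these peaks 5 had an unadjusted p under 0.05 and none was called by limma (lowest adjusted p = 0.133). Of all 84091 tested peaks, 14687 had such an unadjusted p.

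The Id3 peak 36.9 kb upstream went the other way, with 15.1 and 9.81 reads in aged against 90.6 and 112 in young naive cells, a log2 difference of -2.94 ± 0.46 (adjusted p = 3.32e-04, limma). The Id3 peak 20.3 kb upstream had 8.40 and 7.19 against 46.9 and 22.5 (adjusted p = 0.0363, limma). The Id3 start peak was not called, at 399 and 388 against 445 and 423. Fewer member peaks were called with any 1 library left out, and calls over all peaks fell too. The count was 30, 15 higher and 15 lower, when the 4 naive libraries were fitted alone, where 31.7% of all peaks were called. With 2 libraries a group, only the Id3 peak 36.9 kb upstream was called with every library left out in turn (adjusted p up to 0.0118). The Id2 peak 3.2 kb upstream was lost without aged naive replicate 1 or either young library, and the Id2 gene-end peak and the Id3 peak 20.3 kb upstream without any 1 of the 4. Markers moved too: gene-end sums were 148 to 154 in aged and 61.8 to 73.3 in young naive cells for the NK list, 459 to 485 and 261 to 308 for the myeloid list (2 of 4 genes), 443 to 463 and 281 to 313 for the melanocyte list, and 2075 to 2185 and 1836 to 1981 for the CD8 list. The plasmacytoid dendritic cell list had 773 to 861 and 559 to 606, the CD4 T cell list 348 to 371 and 242 to 273, and the B cell list 116 to 124 and 149 to 164. Their part in the naive results was not tested.

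For aged against young OT-1 Tterm, 0 of 59 member peaks were called by limma and by edgeR, against 0.266% of all peaks (0.178% higher and 0.088% lower). In limma, 14 members and 6722 of all 84091 peaks had an unadjusted p under 0.05. Without the 3 Tterm and 2 Tprog libraries of batch 6 there were 8, 2 higher and 6 lower, where 3.8% of all peaks were called, and 5 of the 6 lower ones were at Tcf4. Leaving out aged Tterm replicate 6 or young Tterm replicate 6 gave 2 calls, and leaving out young Tterm replicate 7 gave 1. Calls over all peaks then went from 224 to 742, 437 and 333, in that order. The B cell sum was 133 to 164 in aged and 169 to 191 in young OT-1 Tterm, and its part was not tested. The Tcf4 peaks given next were chosen after their values were seen. At 249.8 kb from the lower end (chr18:69592389-69594005) the aged libraries of batch 4 & 5 had 38.4, 51.1, 30.3, 44.7 and 26.6 reads and the young ones 104, 133, 156, 136 and 124. Those groups were apart, with a log2 difference of -1.77 ± 0.17 (adjusted p = 3.93e-06, limma) in that fit. In batch 6, the aged library had 170 reads and the 2 young ones 73.3 and 140, so the order was reversed there. The gene-end peak at 1.9 kb had 146, 230, 214, 251 and 204 reads in aged and 283, 346, 446, 381 and 371 in young Tterm of batch 4 & 5, and 418 in aged against 336 and 527 in young Tterm of batch 6.

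At 301.0 kb the batch 4 & 5 values were 55.7, 40.6, 33.8, 74.0 and 57.3 in aged and 135, 163, 145, 171 and 139 in young Tterm, and in batch 6 72.2 in aged and 120 and 35.1 in young. A test of the age difference in batch 4 & 5 against that in batch 6, with all libraries in the fit, called 0 of 59 members, where 0.0535% of all peaks were called, and gave -2.51 ± 0.70 at 249.8 kb (adjusted p = 0.272, limma). In that fit 2 members, the Tcf4 peaks at 249.8 and 1.9 kb, were called within batch 4 & 5 (adjusted p = 0.00520 and 0.0284, limma), where 741 of all 84091 peaks (0.881%) were called. Within batch 6, 0 members and 16 of all peaks were called. The age difference in batch 6, and so the test between the batches, rests on a single aged library.

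**Figure D5:**
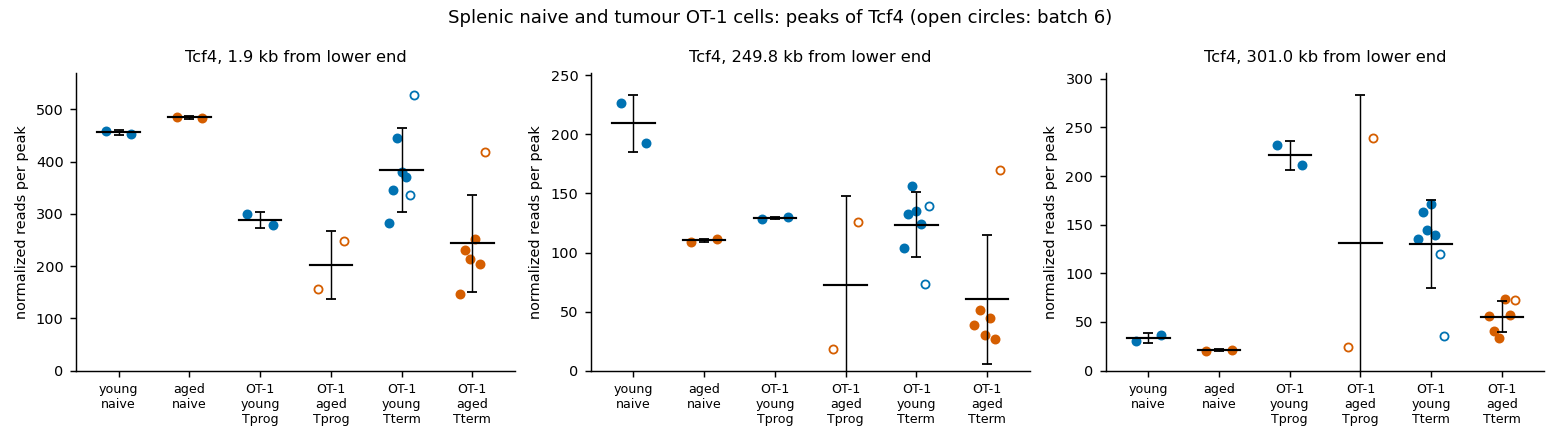
Normalized reads per peak (y axis, from 0) at 3 peaks of Tcf4 in each naive and OT-1 library, by group (x axis; blue young, orange aged; open circles batch 6); black lines are means and error bars SD. In OT-1 Tterm the filled aged points lie below the filled young points at all 3 peaks, while the open aged point of batch 6 lies between or above the open young points.

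Other genes of the pathway were counted by list. In young endogenous Tterm against Tprog, 14.3% of all tested peaks were called higher and 11.3% lower. There, 10 genes of other helix-loop-helix and cofactor proteins had counts near those shares, 8 higher and 7 lower of 50 tested peaks. Of these, a peak of Bhlhe40, a repressor induced by activation, was higher (383 ± 31.6, n = 5, against 176 ± 38.5, n = 4) and a peak of Cbfa2t3, an E protein corepressor, lower (750 ± 118 against 1101 ± 131). For 8 regulators there were 97 tested peaks, 23 higher and 10 lower. Among them were a peak inside Prdm1, which encodes Blimp-1 (598 ± 50.8 against 219 ± 29.2, higher), and a gene-end peak of Egr2, a factor downstream of the T cell receptor (52.0 ± 14.0 against 146 ± 29.2, lower). For 9 genes known to be bound by E proteins in T cells there were 72 tested peaks, 5 higher and 21 lower, with a median log2 difference of -0.32 against -0.01 over all peaks. A peak inside Tcf7, which encodes TCF1, fell from 1022 ± 126 to 210.0 ± 37.3, and a peak near Cxcr5, a chemokine receptor, from 175 ± 39.1 to 32.4 ± 9.68. Among the higher ones were a peak inside Cd4 (675 ± 110 against 352 ± 56.6) and a peak inside Bcl6 (445 ± 48.5 against 314 ± 46.8). In young OT-1 cells, where 4.06% of all peaks were called higher and 3.57% lower, the same 3 lists had 3 higher and 3 lower of 59, 11 and 4 of 104, and 1 and 18 of 102. In Tadys against aged Tterm, with 2.06% higher and 4.23% lower over all peaks, they had 0 and 4 of 50, 2 and 7 of 97, and 8 and 0 of 72.

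At the 100 kb limit of the gene assignment, the Id2 peak 93.8 kb upstream lies 92566 bp from the gene body and had a mean of 1892 over the endogenous libraries, and the next peak outward, at 112140 bp, was left out with a mean of 339. For Tcf4 the farthest peak inside lay at 71427 bp (25.7 reads) and the nearest outside at 112873 bp (32.2 reads).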

How the data were processed

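The authors deposited 2 tables of ATAC-seq signal, reads per peak divided by a size factor per library, for 17 endogenous and 21 other libraries. The submitters' processing notes name Bowtie2 2.2.9, SAMtools 1.3.1, Picard 2.8.0, MACS2 2.1.1, DESeq2 1.28.1 and the build mm10, without their roles. In all libraries 100% of the values were whole reads after division by 1 step size per library (within 0.05 reads). Signal was tested as log2(value + 1) with limma 3.58.1 (R 4.3.3) and a mean-variance trend, for peaks with a mean of 10 or more, all groups of a table in 1 model, and a batch 6 term in the table of naive and OT-1 libraries. P-values were adjusted over all tested peaks by Benjamini-Hochberg. The tables were normalized apart, so no test crosses them. Peaks named are, per gene and table, the gene-end peak and the peak of highest mean, up to 4 called peaks of lowest adjusted p in each direction in young Tterm against Tprog, and up to 4 called in an age or Tadys comparison; other peaks were named after their values were seen. Likeness used peaks with a mean of 30 or more. Alternatives were a pseudocount of 5, no filter, equal library totals, edgeR 4.0.16 on recovered reads, the replicate block, no batch term, no batch 6 libraries and each library left out. Fits of naive libraries alone and of age by batch were chosen after seeing the data. Members and gene lists were chosen with earlier results of these data known. Genes came from GRCm38.p6 RefSeq (21896 protein-coding).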

Additional observations from a re-analysis of the deposited data

Results flagged for a closer look

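Of 66 groups of 4 to 10 libraries screened over the named peaks, 4 had a library whose gap to the nearest other was large for the range of its group (Dixon's 95% limit), 6.06%, where chance gives about 1 in 20. Young endogenous Tterm replicate 4 was highest at the Tcf4 peak 315.2 kb from the lower end, with 22.7 reads. Young OT-1 Tterm replicate 1 was highest at the Id3 peak 43.3 kb upstream, with 156 reads. Young OT-1 Tterm replicate 6, of batch 6, was highest at the Id2 peak 69.4 kb upstream, with 791 reads, and at the Tcf12 peak 22.5 kb into the gene, with 28.9 reads.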

How the results depend on the processing

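Of 65 named differences, 41 kept their call under every alternative run for them, 24 lost it under at least 1, and 0 reversed. Counts of called members that moved by over 1.5 times were as follows, and the cause was not tested. Equal library totals gave 5 for Tadys against aged Tterm and 14 for young OT-1 Tterm against Tprog. Without the batch 6 libraries the latter was 17, and aged against young OT-1 Tterm 8. The naive libraries alone gave 30 for age. With each library left out in turn, counts ran from 21 to 22 (young) and 12 to 15 (aged) for endogenous Tterm against Tprog, 0 to 0 for age in endogenous Tterm, in Tprog and for age by subset, 3 to 6 for Tadys against Tterm, 1 to 4 against Tprog, 7 to 13 for young and 7 to 23 for aged OT-1 Tterm against Tprog, 0 to 2 for age in OT-1 Tterm, 1 to 2 for age in naive cells, 5 to 5 for Tprog and 13 to 29 for Tterm against naive. Same replicate numbers gave no clear sign of pairing. The median correlation of same-numbered deviations was -0.03 over 27 pairs of endogenous libraries and -0.00 over 34 pairs of the others. The highest were 0.285 and 0.279, and a weak pairing could be missed this way. With the replicate block, counts were 21, 14, 0, 0, 3, 1 and 0 for the endogenous comparisons in the order above of Tterm against Tprog in young and aged mice, age in Tterm and Tprog, Tadys against Tterm and Tprog, and age by subset. For the OT-1 and naive ones the block took the place of the batch 6 term, and counts were 9, 12, 0, 4, 13 and 26 in the order given. Equal totals moved the median over all peaks from -0.06 to -0.26 for Tterm against naive cells and from 0.11 to -0.12 for age in naive cells. Depth ran from 4.64 to 87.6 megareads, and the Tadys, naive and OT-1 Tprog groups have 2 libraries each.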
